A study of Mus musculus with 33 samples.

Results

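The comparison described here asked how the RNA of motor axons differed when hnRNP R was knocked down. It covered 7 RNA-seq libraries of the axonal compartment, 3 from hnRNP R knockdown cultures and 4 from GFP control cultures. Both groups were primary motoneurons of CD-1 mice grown in microfluidic chambers, in which axons extend into a compartment apart from cell bodies and dendrites, and total RNA was taken from the axonal side. The labels list no treatment and do not say how the knockdown and the GFP controls were made. The labels do not call the libraries separate cultures, so the authors' p-values may measure technical spread. The authors deposited 1 pooled FPKM (fragments scaled to transcript length and library depth) for each group and gene record, so no value below has a replicate SD, and the read depth is unknown. A record was taken up when it reached 1 FPKM in either group, which held for 13119 of 37926 records. Of these, 10693 reached 1 FPKM in both groups, 1182 in hnRNP R knockdown axons alone and 1244 in GFP axons alone, and records of that kind had to differ.

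hnRNP R is an RNA-binding protein of the heterogeneous nuclear ribonucleoprotein family that occurs in the nucleus and in the axons of motoneurons. It is known to bind the 3′ untranslated region of β-actin mRNA and the noncoding RNA 7SK, and it interacts with SMN, the protein lost in spinal muscular atrophy. Axons hold their own set of mRNAs, rich in transcripts for ribosomal and mitochondrial proteins, and translate part of them far from the nucleus.

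The targeted gene was read first. Hnrnpr (chromosome 4, 136310942 to 136345981, GRCm38) was at 3.98 FPKM in hnRNP R knockdown axons, against 9.93 FPKM in GFP axons, a log2 ratio of -1.30 with 0.1 FPKM added, as all log2 ratios here. The authors' deposited table gives no test for it in axons, as its level lay below that of any tested record. In cell bodies Hnrnpr was at 10.8 FPKM in knockdown and 27.2 FPKM in GFP cultures (p = 0.0233, q = 0.310 in the authors' deposited table). Its paralog Syncrip shared a record with Snx14 and Gm20537 that stood at 16.6 FPKM in knockdown axons and 20.6 FPKM in GFP axons. Of the defining motoneuron markers, Chat, Slc5a7, Mnx1, Lhx3 and Isl2 were listed at 0 in both axon groups, and Chat, Mnx1 and Isl2 also in both cell body groups. Ribosomal protein genes that every cell uses, among them Rps12, Rps27 and Rpl29, were listed at 0 in all 4 groups too, so a 0 in these tables can be a failed estimate and says only how a gene is listed. Isl1 was listed at 0 FPKM in knockdown axons, against 1.64 FPKM in GFP axons, and Ret, a growth factor receptor, at 1.39 and 2.25 FPKM in the same order. General neuronal RNAs were present, with the neuronal tubulin Tubb3 at 191 FPKM in knockdown axons and 183 FPKM in GFP axons, and the growth cone gene Gap43 at 222 and 174 FPKM.

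RNAs of other cells were found in both groups. The 10 fibroblast and mural markers, of which 7 were at 1 FPKM or more, summed to 1147 FPKM in knockdown axons and 1026 FPKM in GFP axons, mostly smooth muscle actin Acta2, while Lum was listed at 0 in both. Of the 7, 4 were higher and 3 lower in knockdown axons. The 10 astrocyte and radial glia markers summed to 728 FPKM in knockdown axons and 707 FPKM in GFP axons. The largest was Vim, at 439 and 408 FPKM in the same order. Of the 10, 6 were higher and 4 lower in knockdown axons. Fabp7 was at 131 and 84.8 FPKM, and Nes at 35.3 and 68.0 FPKM. The 10 microglia and macrophage markers, 6 of them at 1 FPKM or more, summed to 24.2 FPKM in knockdown axons and 10.4 FPKM in GFP axons, and Trem2 and Aif1 were listed at 0 in GFP axons. Within this list C1qb was at 0.936 FPKM in knockdown axons and 3.23 FPKM in GFP axons, and C1qc at 2.73 and 2.72 FPKM. Oligodendrocyte markers (5 of 6) summed to 37.8 and 18.8 FPKM, and Schwann cell markers (3 of 6) to 10.6 and 5.95 FPKM, in the same order. The part of these cells in any result below was not tested. In such bulk RNA, fewer cells of a type and less RNA per cell cannot be told apart. The locus Gm26924 alone held 47.5% of the summed FPKM in knockdown axons and 46.7% in GFP axons.

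Across all records the groups lay close together, and the spread depended on the level. The median log2 ratio was 0.03, with quartiles at -0.55 and 0.63, and 6725 records were higher and 6394 lower in hnRNP R knockdown axons. Past 2-fold were 2037 records on the higher side, 15.5% of all, and 1902 on the lower side, 14.5%, without a test. This balance depends on the scaling. Setting both groups to the same summed FPKM without Gm26924 moved log2 ratios by -0.33, and 1407 records were then past 2-fold higher and 2780 lower, with 36.1% of all records higher in place of 51.3%. The mitochondrial record of mt-Nd1 and mt-Nd2 weighed on that sum, at 115789 FPKM in knockdown axons and 70510.2 FPKM in GFP axons, and without both records the shift was -0.15. Ratios below are given as deposited and read against the median of all records. Most of these were of low level: the SD of log2 ratios across records was 2.32 between 1 and 2 FPKM (higher group, 1931 records), 0.97 between 10 and 20 FPKM (2427 records) and 0.51 between 100 and 1000 FPKM (169 records). The median rose along the same scale, at -0.07 in the first of these classes, 0.06 in the second and 0.35 in the third, where 126 of 169 records were higher in knockdown axons. The authors tested 1749 records, the lowest at 21.8 FPKM in its higher group. The authors' deposited table calls 2 of them at q under 0.05, which is 0.114% of those tested. At an unadjusted p under 0.05, 6.29% of tested records were higher and 2.97% lower in knockdown axons.

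**Figure D1:**
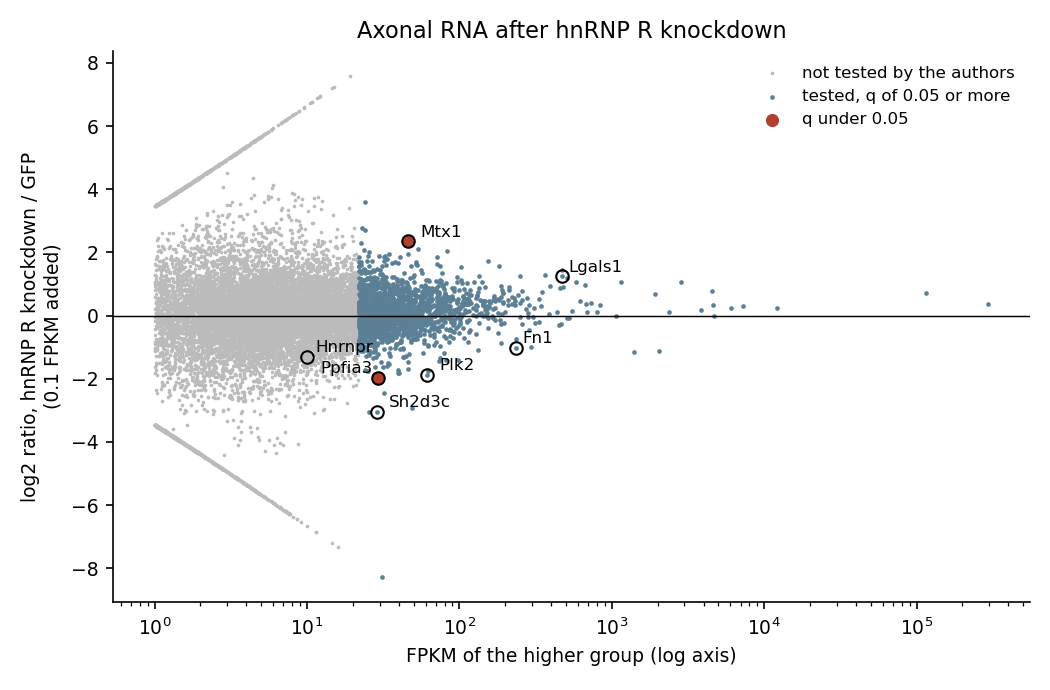
Log2 ratio of hnRNP R knockdown over GFP axons (0.1 FPKM added) against the FPKM of the higher group on a log axis, 1 point for each of 13119 records. Grey records were not tested by the authors, blue ones were tested, and the 2 red ones, Mtx1 and Ppfia3, had q under 0.05. Points on the 2 slanting lines are records listed at 0 in 1 group, and the cloud narrows toward higher levels.

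The only genes that passed were Mtx1, which was higher, and Ppfia3, which was lower. Mtx1 encodes metaxin 1, a protein of the mitochondrial outer membrane that takes part in protein import. It rose to 45.9 FPKM in hnRNP R knockdown axons, against 8.92 FPKM in GFP axons, 5.14-fold, with a log2 fold change of 2.36 ± 0.58 (SE read from p) and q = 0.0437 in the authors' deposited table. Ppfia3 encodes liprin-α3, a scaffold of the presynaptic active zone. It fell to 7.37 FPKM in knockdown axons, against 29.1 FPKM in GFP axons, a log2 fold change of -1.98 ± 0.49 with q = 0.0437 in the authors' deposited table. Both p-values, 5e-05, are the smallest the authors' deposited table holds, so these errors are approximate.

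Both passing genes share their locus with other genes. The Mtx1 record runs from 89209081 to 89227088 on chromosome 3, and in RefSeq on the same build Mtx1 covers 89209081 to 89213907, while Thbs3, the matrix protein thrombospondin 3, occupies 89215180 to 89226841. Thbs3 had a record of its own over this locus, untested, at 13.2 FPKM in hnRNP R knockdown axons and 6.72 FPKM in GFP axons. The Ppfia3 record runs from 45339126 to 45370583 on chromosome 7 and covers Ppfia3 (45339126 to 45367019), the noncoding Mtag2 (45366161 to 45367948) and Lin7b (45367891 to 45370564), a PDZ-domain scaffold of synapses. Lin7b was untested, at 6.93 FPKM in knockdown axons and 6.87 FPKM in GFP axons. In RefSeq, Mtx1 and Thbs3 do not overlap, nor do Ppfia3 and Lin7b, while Mtag2 overlaps the ends of both Ppfia3 and Lin7b. The sources used here do not say whether the counting used strand, so reads in the parts shared with Mtag2 cannot be told apart.

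Since these are the genes that passed, the 100 bases before each RefSeq start are shown (GRCm38.p6, read 5′ to 3′ on the minus strand, which both genes occupy), with CCAAT and its reverse complement ATTGG in capitals.
Mtx1, chr3:89213908-89214007: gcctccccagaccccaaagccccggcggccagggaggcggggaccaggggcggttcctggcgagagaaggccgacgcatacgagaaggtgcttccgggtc
Ppfia3, chr7:45367020-45367119: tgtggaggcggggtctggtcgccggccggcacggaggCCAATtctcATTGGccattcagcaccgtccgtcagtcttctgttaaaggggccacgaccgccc
The Ppfia3 window holds the motif once on each strand and the Mtx1 window does not hold it. Of the 32851 starts in the RefSeq promoter table, a share of 18.9% hold it within 100 bases, and no binding was measured here.

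The relatives of the passing genes had no completed test. Mtx2, the second metaxin, was at 7.71 FPKM in knockdown axons and 6.55 FPKM in GFP axons, and Mtx3 at 0.565 and 2.09 FPKM in the same order. Among the other liprins-α, Ppfia1 was at 7.59 FPKM in knockdown axons and 11.4 FPKM in GFP axons, Ppfia2 at 3.47 and 5.56 FPKM, and Ppfia4 at 2.52 and 2.67 FPKM. Their log2 ratios ran from -1.72 for Mtx3, which was below 1 FPKM in knockdown axons, to 0.23 for Mtx2.

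Of the 12 records with the lowest p on the higher side, Mtx1 alone passed. Rps6kc1, a kinase-like protein of endosomes, was at 48.9 FPKM in hnRNP R knockdown axons and 9.42 FPKM in GFP axons (p = 0.00105, q = 0.221 in the authors' deposited table). Ucp2, a carrier of the inner mitochondrial membrane, was at 82.6 FPKM in knockdown axons and 19.9 FPKM in GFP axons (p = 0.00185, q = 0.221 in the authors' deposited table). Ndufa3, a subunit of respiratory complex I, was at 53.7 FPKM in knockdown axons and 12.5 FPKM in GFP axons (p = 0.00275, q = 0.221 in the authors' deposited table). A record that merges Cox16, an assembly factor of complex IV, with Synj2bp, an outer membrane protein that anchors synaptojanin 2, and Gm20498 stood at 24.9 and 7.44 FPKM in the same order (p = 0.00055, q = 0.160 in the authors' deposited table). Lgals1, the secreted lectin galectin 1, had the highest levels of a protein-coding gene in this group, at 470.0 FPKM in knockdown axons and 199 FPKM in GFP axons (p = 0.00265, q = 0.221 in the authors' deposited table). The others were Shisa4 (36.0 FPKM in knockdown axons, 11.4 FPKM in GFP axons), the noncoding Rmst (71.5 and 19.7 FPKM) and Pvt1 (22.7 and 4.50 FPKM), Rprl3, an RNase P RNA-like gene (473 and 174 FPKM), Gm10443 (155 and 46.9 FPKM) and Rpsa-ps10, a pseudogene of the ribosomal protein gene Rpsa (75.01 and 25.5 FPKM). Pseudogene records share sequence with their parent genes, so their values are uncertain.

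Of the 12 records with the lowest p on the lower side, Ppfia3 alone passed. Plk2, a polo-like kinase that is induced by p53 and acts at synapses, was at 16.7 FPKM in hnRNP R knockdown axons and 61.2 FPKM in GFP axons (p = 0.00025, q = 0.131 in the authors' deposited table). Cald1, the actin- and myosin-binding caldesmon, was at 36.6 FPKM in knockdown axons and 97.6 FPKM in GFP axons (p = 0.0003, q = 0.131 in the authors' deposited table). Sh2d3c, an adaptor in Eph receptor and integrin signalling, had the greatest distance of these, at 3.37 FPKM in knockdown axons and 28.6 FPKM in GFP axons (p = 0.00045, q = 0.157 in the authors' deposited table). Vgf, a secreted neuropeptide precursor, was at 12.1 FPKM in knockdown axons and 39.8 FPKM in GFP axons (p = 0.00075, q = 0.187 in the authors' deposited table). Pfkp, the platelet-type phosphofructokinase of glycolysis, was at 11.4 FPKM in knockdown axons and 40.2 FPKM in GFP axons (p = 0.00135, q = 0.221 in the authors' deposited table). Prrc2c (17.6 FPKM in knockdown axons, 43.5 FPKM in GFP axons), Shisa5 (10.9 and 30.5 FPKM), the junctional plakoglobin gene Jup (7.20 and 24.1 FPKM), Tmem130 (17.0 and 42.6 FPKM), the matricellular protein gene Wisp1 (7.99 and 29.7 FPKM) and Mospd3 (7.95 and 29.4 FPKM) made up the rest.

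**Figure D2:**
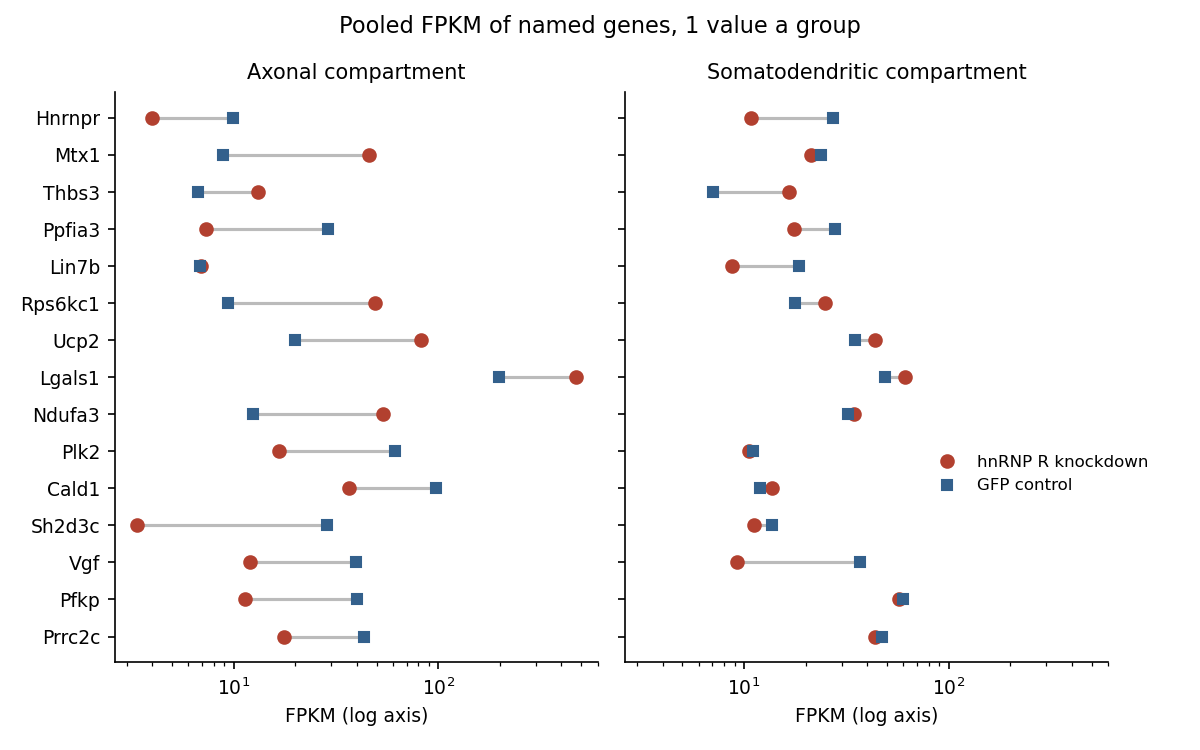
Pooled FPKM (log axis) of the targeted gene, the 2 passing genes, their locus neighbours and 10 of the genes named for a low unadjusted p, in axons (left) and cell bodies (right). Red circles are hnRNP R knockdown and blue squares GFP control, 1 value a group with no replicate error. Mtx1 stands at 45.9 against 8.92 FPKM in axons and at 21.3 against 23.7 FPKM in cell bodies, while Hnrnpr and Vgf are lower in knockdown on both sides.

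The same genes were set beside the somatodendritic side, where the hnRNP R knockdown and GFP groups were separate libraries of 3 and 4. Both sides carry the same replicate numbers in their titles, so their cultures may be shared. The test of the difference treats the sides as independent, which limits its errors and p-values. Mtx1 was at 21.3 FPKM in knockdown cell bodies and 23.7 FPKM in GFP cell bodies, so its log2 fold change was 2.52 ± 0.71 greater in axons (SE, approximate two-sided z test from the authors' p-values, unadjusted p = 0.000357). Ppfia3 was at 17.6 FPKM in knockdown cell bodies and 27.8 FPKM in GFP cell bodies, and its log2 fold change was lower in axons by a difference of -1.32 ± 0.55 (same test on the authors' values, p = 0.0171). Pfkp, at 57.3 and 59.9 FPKM in knockdown and GFP cell bodies, had a difference of -1.76 ± 0.62 (same test on the authors' values, p = 0.0044). Mtx1, Ppfia3 and Pfkp were chosen by their low axonal p, and the test reuses those axonal values. Their low unadjusted p-values for the difference follow in part from that choice. Over the 1505 records tested in both compartments, 6.91% had an unadjusted p under 0.05 for this difference, 73 of them toward higher and 31 toward lower values in axons. None passed after Benjamini-Hochberg adjustment, with 0.538 as the lowest adjusted p, that of Mtx1, so a difference between compartments was not shown for any single gene. Across these records log2 ratios of axons and cell bodies were nearly unrelated in rank (Spearman's rho 0.07, records are not independent replicates), and their SD was 0.60 in axons and 0.36 in cell bodies. Vgf was at 9.27 FPKM in knockdown cell bodies and 36.8 FPKM in GFP cell bodies and passed there (q = 0.00865 in the authors' deposited table). Its difference between compartments was 0.27 ± 0.71.

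Some of these genes are given for the 7SK knockdown axons, a group of 4 libraries set against the same GFP axon libraries, so that both comparisons share their controls. Plk2 was at 8.95 FPKM in 7SK knockdown axons and 63.1 FPKM in the GFP column of that table. Cald1 was at 31.9 and 101 FPKM, and Sh2d3c at 9.12 and 29.1 FPKM, in the same order. Plk2 (q = 0.0036) and Cald1 (q = 0.026 in the authors' deposited table) passed there. Ucp2 was at 68.8 FPKM in 7SK knockdown axons and 20.4 FPKM in GFP axons, and Ndufa3 at 36.2 and 12.8 FPKM. Mtx1 was at 14.6 FPKM in 7SK knockdown axons and 9.17 FPKM in GFP axons, and Ppfia3 at 33.0 and 29.7 FPKM. Pfkp was at 37.3 FPKM in 7SK knockdown axons and 41.4 FPKM in GFP axons, Prrc2c at 37.6 and 44.7 FPKM, Tmem130 at 48.8 and 43.5 FPKM, and Mospd3 at 22.1 and 30.3 FPKM. Of genes named below, Hist1h4d was at 122 and 36.6 FPKM, Rps15 at 521 and 261 FPKM, and Cox8a at 463 and 227 FPKM. Fth1 was at 1465 and 568 FPKM, and Rny1, lower in hnRNP R knockdown axons, at 3311 and 1422 FPKM. Rpph1 was at 4505 and 1382 FPKM. Of these, Fth1 (q = 0.0056) and Rpph1 (q = 0.0036 in the authors' deposited table) passed there. List medians were not taken for 7SK knockdown axons, so no list value below is shown to be particular to hnRNP R knockdown.

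Histone mRNAs showed the greatest median among the larger gene lists. Of 68 histone records 59 reached 1 FPKM, with a median log2 ratio of 1.21, and 33 were past 2-fold higher, against 2 past 2-fold lower. Their FPKM summed to 1422 in hnRNP R knockdown axons and 663 in GFP axons. None passed over all genes, and 6 of 18 tested members had an unadjusted p under 0.05, all higher, where 6.29% of all tested records were. The replication-dependent genes of the Hist clusters, whose mRNAs end in a stem-loop in place of a poly(A) tail, were separated after their values were seen: 44 of 50 were higher, with a median of 1.29. The 9 replacement variants, which are polyadenylated, had a median of 0.16, which turned to -0.17 under the scaling without Gm26924. In cell bodies the medians of the same records were -0.23 and -0.29, in that order. Histone genes are near-identical copies, so single values are uncertain.

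The tested histone genes are named by their p, chosen after their values were seen. Hist1h1a, a linker histone, was at 71.3 FPKM in hnRNP R knockdown axons and 22.9 FPKM in GFP axons (p = 0.00385, q = 0.221 in the authors' deposited table). Hist1h4d, a core histone H4 gene, was at 103 FPKM in knockdown axons and 35.5 FPKM in GFP axons (p = 0.00705, q = 0.252 in the authors' deposited table). Hist1h1c, Hist2h2bb, Hist1h1e and Hist1h3c followed, at 23.4, 362, 74.8 and 25.2 FPKM in knockdown axons, against 8.48, 149, 34.4 and 6.68 FPKM in GFP axons. In cell bodies Hist1h1a was at 29.1 FPKM in knockdown and 27.2 FPKM in GFP cultures, and Hist1h4d at 105 and 104 FPKM.

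To show the sequence before these genes, the 100 bases before the RefSeq start of the 4 with the lowest p are shown (GRCm38.p6, plus strand, 5′ to 3′), with CCAAT or its reverse complement ATTGG and the box TATAA in capitals.
Hist1h1a, chr13:23763568-23763667: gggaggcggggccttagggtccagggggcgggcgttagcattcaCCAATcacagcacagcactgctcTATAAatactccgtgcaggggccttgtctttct
Hist1h4d, chr13:23581468-23581567: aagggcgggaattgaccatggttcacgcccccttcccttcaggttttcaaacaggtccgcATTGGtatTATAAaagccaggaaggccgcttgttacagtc
Hist1h1c, chr13:23738707-23738806: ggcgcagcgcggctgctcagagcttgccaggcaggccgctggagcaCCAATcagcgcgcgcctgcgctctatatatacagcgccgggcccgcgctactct
Hist2h2bb, chr3:96269600-96269699: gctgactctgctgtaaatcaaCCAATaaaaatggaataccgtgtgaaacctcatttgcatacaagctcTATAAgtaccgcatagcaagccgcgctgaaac
CCAAT on either strand within 250 bases was found before 39 of 47 starts of the replication-dependent members, 83.0%, against 33.8% of all 32851 starts in the table. TATAA on the gene's strand within 50 bases was found before 22 of 47, 46.8%, against 4.93% of all starts. Before the 8 starts of the replacement variants, CCAAT was found at 5, 62.5%, and TATAA at 1, 12.5%. A match describes these letters and is no site, and transcription was not measured.

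Cytosolic ribosomal protein genes had a median log2 ratio of 0.48 over the 74 of 85 that reached 1 FPKM, 56 higher and 18 lower in hnRNP R knockdown axons. No member passed, and 8 of 39 tested had an unadjusted p under 0.05, all higher, against 6.29% of all tested records on that side. The small subunit (median 0.61, 27 of 30 higher) and the large subunit (median 0.38, 29 of 44 higher) both lay above the 0.03 of all records. Abundant or short records outside the ribosomal, oxidative phosphorylation and histone lists also did. Their median was 0.29 at 100 to 1000 FPKM. At spans of 2 to 5 kb it was 0.14, or 0.35 over tested records. The part of level and span in the ribosomal medians was not tested. The stalk protein genes Rplp1 and Rplp0 were at 249.7 and 665 FPKM in knockdown axons, against 105 and 340.4 FPKM in GFP axons, and Rps15, of the small subunit, was at 479 against 254 FPKM. Translation factors, which load and move ribosomes, had a median of -0.05, with 19 of 44 higher. In cell bodies the ribosomal protein genes had a median of 0.11.

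Nuclear genes of oxidative phosphorylation had a median log2 ratio of 0.53 over 79 of 84 members, 67 higher and 12 lower in hnRNP R knockdown axons, and none passed. Complex I (31 of 36 higher, median 0.54), complex IV (11 of 13, 0.59) and ATP synthase (14 of 17, 0.58) gave like values. Of 61 tested members 5 had an unadjusted p under 0.05, all higher: Ndufa3, Cox8a (505 FPKM in knockdown axons, 221 FPKM in GFP axons), Cox6a1 (395 and 206 FPKM), Atp5c1 (65.7 and 36.2 FPKM) and Ndufb10 (78.5 and 41.5 FPKM). That share is near the 6.29% of all tested records and is no result about these genes. Mitochondrial ribosomal protein genes lay at a median of 0.40, with 55 of 76 higher. Genes of the outer membrane and import machinery, the list that holds Mtx1, had a median of 0.24 with 28 of 45 higher, which turned to -0.09 under the scaling without Gm26924. Genes of mitochondrial fusion, fission and transport lay at 0.03, as all records did. The median in cell bodies was -0.05 for oxidative phosphorylation and -0.09 for the mitochondrial ribosome.

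Under the scaling without Gm26924 the medians of these lists kept their sign, at 0.89 for histones, 0.15 for cytosolic ribosomal proteins, 0.20 for oxidative phosphorylation and 0.07 for mitochondrial ribosomal proteins. That scaling turned the sign of 13 lists with at least 3 members at 1 FPKM or more. It lowers nearly all records alike, and the median of protein-coding records went from 0.02 to -0.30. A kept or turned sign thus follows from the size of the deposited median. The distance of a list from other records stays about the same.

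**Figure D3:**
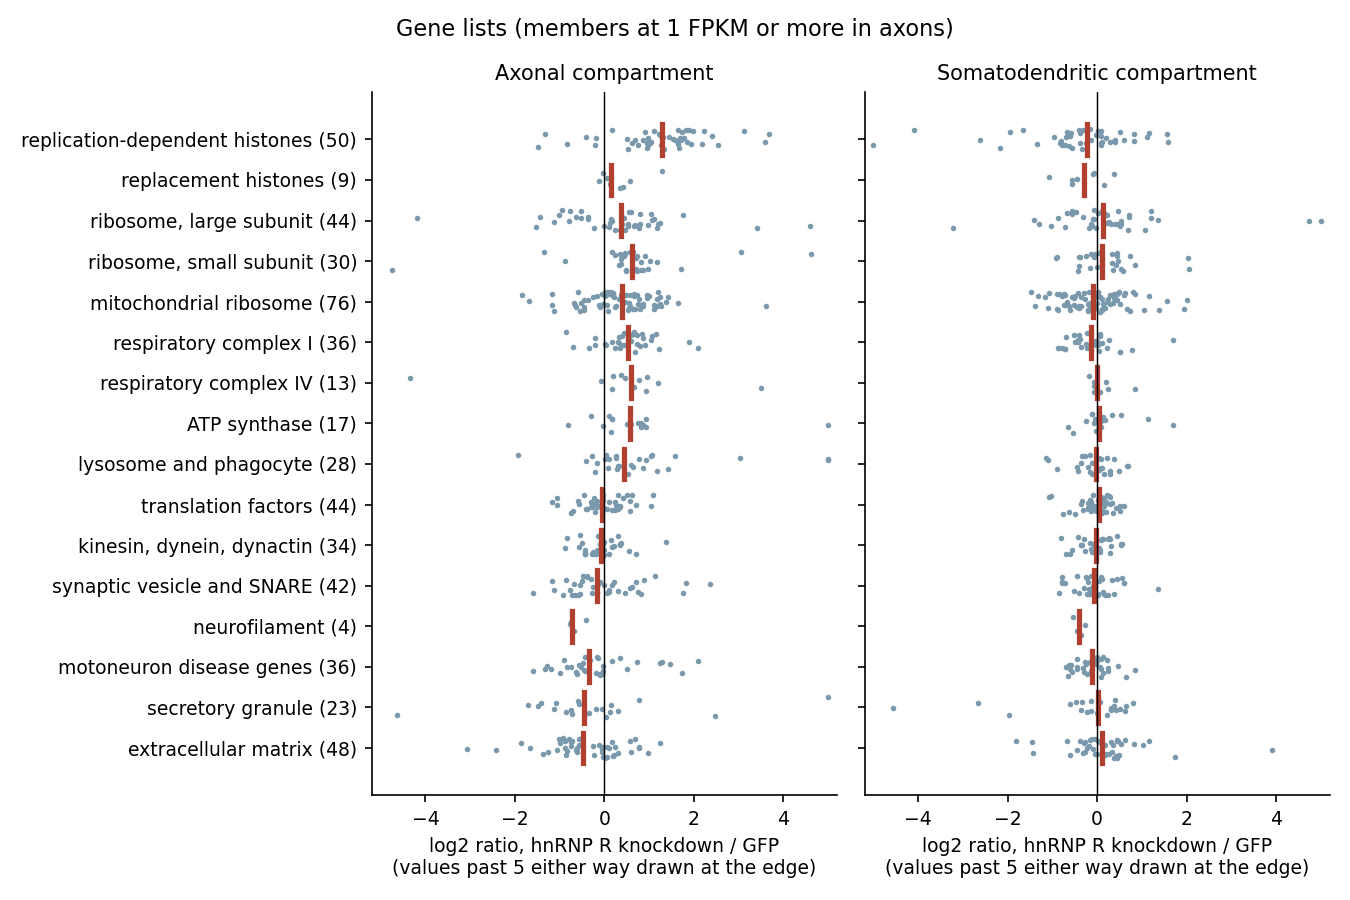
Log2 ratio of hnRNP R knockdown over GFP (0.1 FPKM added) for members of 16 gene lists, in axons (left) and for the same records in cell bodies (right), 1 point a record and the median as a red bar, with the number of members at 1 FPKM or more in axons in parentheses. In axons the medians run from 1.29 for replication-dependent histones to -0.72 for neurofilaments. In cell bodies they lie nearer to 0, except for replacement histones (0.16 in axons, -0.29 in cell bodies).

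Matrix, motoneuron disease, neurofilament and secretory granule genes lay on the lower side, none passing. Extracellular matrix genes had a median log2 ratio of -0.48, with 16 of 48 higher and 32 lower in hnRNP R knockdown axons. Fibronectin, Fn1, was at 117 FPKM in knockdown axons and 237 FPKM in GFP axons, and thrombospondin 1, Thbs1, at 148 and 295.5 FPKM, each with an unadjusted p under 0.05 in the authors' deposited table. Of 23 tested members these 2 were lower at that p, where 2.97% of all tested records were. Lgals1 went the other way within this list. Motoneuron disease genes had a median of -0.34, with 9 of 36 higher and 27 lower, and all 11 tested members were lower without passing. Among them Atxn2, an RNA-binding protein of stress granules, was at 29.4 FPKM in knockdown axons and 74.5 FPKM in GFP axons. The 4 neurofilament genes at 1 FPKM or more were all lower, with a median of -0.72: Nefl was at 21.4 FPKM in knockdown axons and 36.2 FPKM in GFP axons, Nefm at 12.5 and 20.1 FPKM, Ina at 33.6 and 44.4 FPKM, and Nefh at 1.21 and 2.11 FPKM. The same 4 genes were also lower in knockdown cell bodies, with a median of -0.41 and no call there, such as Nefm at 56.5 FPKM in knockdown and 82.0 FPKM in GFP cell bodies (p = 0.0038, q = 0.166 in the authors' deposited table).

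Secretory granule genes had a median of -0.46, with 16 of 23 lower, and 3 of 8 tested members had an unadjusted p under 0.05, against 2.97% of all tested records on that side. These were Vgf, Chga (chromogranin A, 10.6 FPKM in hnRNP R knockdown axons, 23.2 FPKM in GFP axons) and Scg2 (secretogranin II, 10.3 and 21.9 FPKM), all lower. Stmn4, a tubulin-binding stathmin, was at 25.3 FPKM in knockdown axons and 57.3 FPKM in GFP axons, while its list of microtubule and growth cone genes had a median of 0.02. The motors kinesin, dynein and dynactin (median -0.08), synaptic vesicle genes (-0.16), tubulins (0.01) and actin and its regulators (-0.06) lay near the median of all records. So did the hnRNP genes, a list that holds Hnrnpr itself (-0.02). β-actin itself, Actb, a known hnRNP R target, was at 2381 FPKM in knockdown axons and 2210.3 FPKM in GFP axons (log2 ratio 0.11, p = 0.831 in the authors' deposited table).

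Lysosome and phagocyte genes had a median of 0.43, with 23 of 28 higher in hnRNP R knockdown axons, and of 0.10 with 15 of 28 higher under the scaling without Gm26924. The ferritin subunits Fth1 and Ftl1 were at 1158 and 584 FPKM in knockdown axons, against 554 and 281 FPKM in GFP axons. Apoe, a lipid carrier of glia and phagocytes, was at 183 FPKM in knockdown axons and 61.6 FPKM in GFP axons. These 3 of 10 tested members had an unadjusted p under 0.05 without passing, where 6.29% of all tested records were higher at that p. The phagocyte genes did not lie on 1 side: Trem2 and Fcer1g were at 4.28 and 3.27 FPKM in knockdown axons and listed at 0 in GFP axons, while Lyz2, for lysozyme, was at 0.597 FPKM in knockdown axons and 2.56 FPKM in GFP axons. Summed microglia markers were 24.2 FPKM in knockdown axons and 10.4 FPKM in GFP axons, and their part in this result was not tested.

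Beyond single genes, the axonal log2 ratio differed with the span of the locus. Over all 1749 tested records the median was 0.14, with 58.6% higher in hnRNP R knockdown axons. Among tested records whose locus spans under 2 kb, introns included, the median was 0.49 (133 records, 105 higher in hnRNP R knockdown axons). It was 0.44 between 2 and 5 kb (139 records), 0.29 between 5 and 10 kb (198), 0.11 between 10 and 20 kb (275) and 0.06 between 20 and 50 kb (441). Above that it stayed near 0, at -0.01 between 50 and 100 kb (257), -0.01 between 100 and 200 kb (176) and 0.09 at 200 kb or more (130). At an unadjusted p under 0.05, records under 2 kb were higher in 23 cases and lower in 2. Of all tested records 6.29% were higher and 2.97% lower at that p. Records of 50 to 100 kb were higher in 12 cases and lower in 8, those of 100 to 200 kb in 2 and 11, and those of 200 kb or more in 6 and 4. The same records in cell bodies had medians between -0.03 and 0.05 in every class. Leaving out the cytosolic and mitochondrial ribosomal protein, oxidative phosphorylation and histone genes gave 0.37, 0.35 and 0.25 in the first 3 classes. Spearman's rho with the span was -0.20 over 1749 tested records in axons and 0.01 over 2768 in cell bodies, and it was -0.07 in axons over all 13119 records. Short records also had higher levels, with a median of 51.0 FPKM (higher group) under 2 kb and 33.9 FPKM between 20 and 50 kb. The scaling without Gm26924 moves all classes alike and leaves their order. The part of length in the list medians above was not tested.

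**Figure D4:**
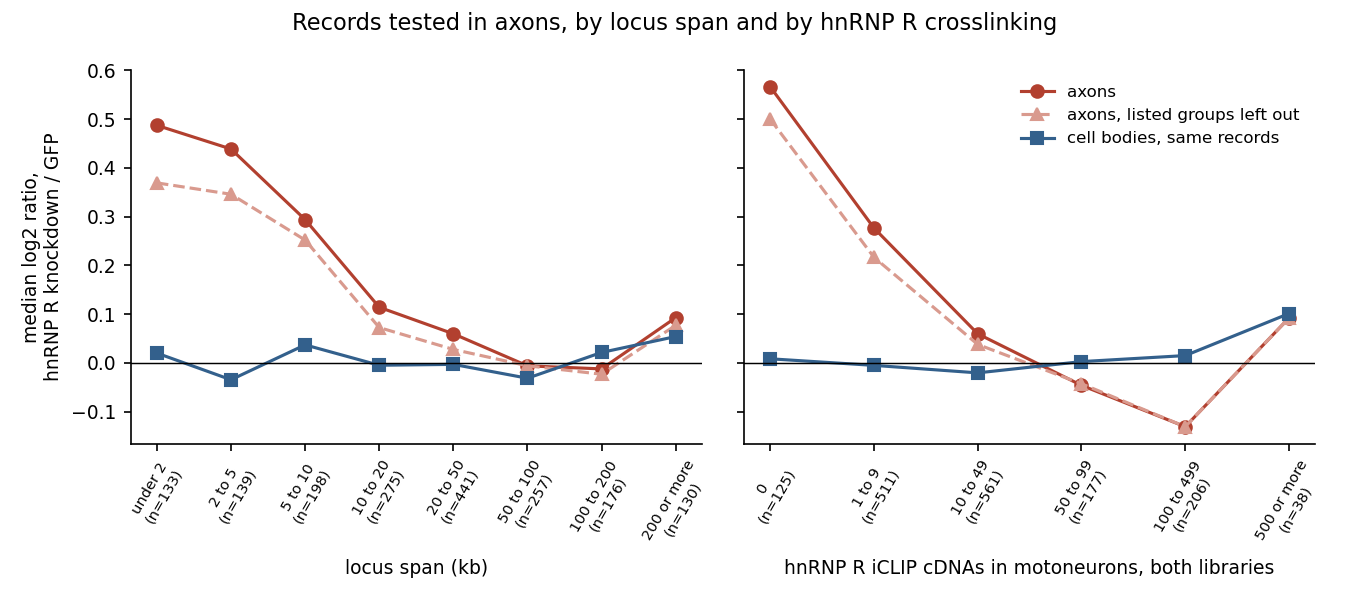
Median log2 ratio of hnRNP R knockdown over GFP for records tested in axons, by locus span in kb (left) and by summed hnRNP R iCLIP cDNAs of both motoneuron libraries (right), with the number of records in each class. Red circles are axons, and blue squares the same records in cell bodies. Pale triangles are axons without cytosolic and mitochondrial ribosomal protein, oxidative phosphorylation and histone genes. The axonal median falls to -0.01 at 50 to 100 kb, against 0.49 under 2 kb, and to -0.13 at 100 to 499 cDNAs, against 0.57 at 0 cDNAs, while cell bodies stay near 0.

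The hnRNP R iCLIP of motoneurons, which counts cDNAs that stop where ultraviolet light had joined the protein to RNA, was set beside these ratios. Its 2 unfractionated libraries held 359005 and 319381 cDNAs, of which 316360 and 276347 lay in introns, and 1618 of 1749 tested records were matched by name. All 1749 tested records had a median axonal log2 ratio of 0.14, with 58.6% higher. Records with 0 cDNAs had a median axonal log2 ratio of 0.57 (125 records, 100 higher in hnRNP R knockdown axons). Of these, 27 had an unadjusted p under 0.05 toward higher and 2 toward lower, where 6.29% and 2.97% of all tested records did. The median was 0.28 at 1 to 9 cDNAs (511 records), 0.06 at 10 to 49 (561), -0.05 at 50 to 99 (177), -0.13 at 100 to 499 (206) and 0.09 at 500 or more (38). Spearman's rho was -0.28 over the 1618 records, as a description across genes. cDNAs and span move together (rho 0.69). Within records under 10 kb the median was 0.44 below 10 cDNAs (306 records) and 0.18 at 10 to 99 (73). Within 10 to 50 kb it was 0.21, 0.02 and -0.14 below 10, at 10 to 99 and at 100 or more cDNAs (275, 399 and 26 records), and at 50 kb or more 0.23, 0.01 and -0.11 (55, 266 and 217 records). These classes were drawn after the values were seen.

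Among the passing genes, Mtx1 had 0 cDNAs in both motoneuron iCLIP libraries, which allows a share of up to 0.000836% and 0.000939% of their cDNAs by counting error alone, and Ppfia3 had 9 and 5. Pfkp had 270 and 268 cDNAs, 232 and 245 of them in introns, Prrc2c 83 and 78, and Cald1 26 and 30, while Plk2 had 7 and 0 and Vgf 2 and 0. Long neuronal genes were among the most crosslinked of the tested records. Nrxn3, a presynaptic adhesion molecule, had 1622 and 1233 cDNAs and was at 10.2 FPKM in knockdown axons and 31.5 FPKM in GFP axons (p = 0.0044, q = 0.226 in the authors' deposited table). Cadm2, a cell adhesion molecule, had 2364 and 2301 cDNAs and lay the other way, at 25.4 FPKM in knockdown axons and 6.26 FPKM in GFP axons (p = 0.0561, q = 0.566 in the authors' deposited table). Ptprd, a receptor phosphatase of synapses, had 3380 and 2132 cDNAs and was at 18.5 and 23.8 FPKM in the same order. Heavily crosslinked genes thus lay on both sides.

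Some records were listed at 0 in 1 group: 451 in GFP axons, at a median of 1.84 FPKM in knockdown axons, and 533 in knockdown axons, at a median of 1.67 FPKM in GFP axons. Rpain, which encodes an importer of the replication protein RPA, was at 19.2 FPKM in hnRNP R knockdown axons and listed at 0 in GFP axons. Dusp7, a phosphatase of the kinase ERK, was at 12.2 FPKM in knockdown axons and listed at 0 in GFP axons. On the other side mt-Tq, the mitochondrial glutamine tRNA, and the small nucleolar RNAs Snord100 and Snora21 were listed at 0 in knockdown axons, against 15.9, 14.6 and 11.5 FPKM in GFP axons. Fbln2, the matrix protein fibulin 2, was at 1.23 FPKM in knockdown axons and 11.1 FPKM in GFP axons. None of these had a test. Gm24157 was tested although listed at 0 in knockdown axons, against 31.2 FPKM in GFP axons, and was not called. Of 74 small nucleolar RNA records 34 were listed at 0 in knockdown axons and 19 in GFP axons, against 533 and 451 of all 13119 records. Of 24 small nuclear RNA records 9 and 6 were so listed. The median log2 ratio of the 21 small nucleolar RNA records at 1 FPKM or more in both groups was -0.18.

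Of the remaining classes, 660 pseudogene records had a median log2 ratio of 0.25, or -0.06 under the scaling without Gm26924, with 11 of 76 tested at an unadjusted p under 0.05, all higher in hnRNP R knockdown axons, against 6.29% of all tested records on that side. Protein-coding records, 11284 in all, had a median of 0.02. Rn7sk, the 7SK RNA, was at 4545.0 FPKM in knockdown axons and 2638 FPKM in GFP axons (p = 0.0565, q = 0.566 in the authors' deposited table). Rpph1, the RNA of RNase P, was at 2845 FPKM in knockdown axons and 1347 FPKM in GFP axons (p = 0.00975 in the authors' deposited table), while Rny1, a Y RNA, was at 629 and 1391 FPKM (p = 0.0163 in the authors' deposited table). Neither passed.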

How the data were processed

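Total RNA of axonal compartments was sequenced by the authors. The submitters' processing notes name FastQC 0.10.1, Cufflinks 2.2.1 and build GRCm38, and the authors deposited FPKM as 1 value a group. The deposited tables also hold the authors' log2 fold change, a test statistic (score), a p-value and a q-value for records with a completed test. The sources used here name no aligner, annotation or test settings. The q-values differed from Benjamini-Hochberg over the 1749 tested records by at most 5.17e-07. The iCLIP values are cDNA counts per gene, deposited on build mm9, and were joined by gene name; 1307 other per-sample iCLIP columns were not used.

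Log2 ratios were recomputed with 0.1 FPKM added over records at 1 FPKM or more in either group. A gene passed at the authors' q under 0.05. The difference between compartments used an approximate z test on the authors' log2 fold changes, each standard error read from p, and was tested on simulated data. Locus starts were moved by 1 to count from 1. No replicate values were available, so no refit, SD or interval was possible.

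The 49 gene lists (1301 entries, 10 without a record) and all members were chosen with earlier results of these data known. Genes were named if they passed, were among the 12 tested records of lowest p per direction, the 6 untested records of largest ratio at 10 FPKM or more per direction, the 6 most crosslinked or most abundant tested records, or, per list, the 4 of largest ratio and the 2 most abundant. Members of a list named for their unadjusted p, Tubb3, Gap43 and Actb were added after their values were seen. Promoters are from the RefSeq table of GRCm38.p6. Python 3.11.15 with scipy 1.17.1, pandas 2.3.3 and matplotlib 3.10.9 was used. Some named genes are not reported here.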

Additional observations from a re-analysis of the deposited data

How the results depend on the processing

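No paired analysis was possible because the deposited tables give 1 pooled value a group, and for the same reason leaving out single replicates was not run. Of the 1 higher and 1 lower gene that passed, an unadjusted p under 0.05 gave 110 higher and 52 lower, q under 0.25 gave 32 and 16, and adjusting over all records at 1 FPKM or more gave 0 and 0. Counts past 2-fold, 2037 higher and 1902 lower, were 870 and 661 at 5 FPKM or more, 1033 and 847 at 1 FPKM or more in both groups, 131 and 69 over tested records, and 3214 lower with no minimum. For list medians, scaling to the same sum without Gm26924 gave 0.15 for ribosomal proteins, 0.20 for oxidative phosphorylation, 0.075 for the mitochondrial ribosome, 0.89 for histones, -0.80 for extracellular matrix and -0.66 for motoneuron disease genes. Leaving out mt-Nd1 and mt-Nd2 as well, chosen after seeing the data, gave 0.33, 0.38, 0.25, 1.07, -0.63 and -0.49 in that order. Tested members alone gave 0.58 for ribosomal proteins, 0.68 for the mitochondrial ribosome, 1.36 for histones and -0.25 for extracellular matrix. Histones were at 0.97 with 1 FPKM added and at 1.04 over members at 1 FPKM or more in both groups, the last chosen after seeing the data. No difference between compartments passed, also with errors from the authors' test statistic or centred values, and an unadjusted p under 0.05 gave 104. Over all records the rho with span was -0.070 and that with cDNAs -0.12. The other 43 values run stayed within 1.5 times for counts and within 0.1 for log2 medians. Without counts, no limit from depth could be given.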
